A study of Mus musculus with 54 samples.

Results

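Naive CD4+ T cells that were taken from mice and left without stimulation were compared between Lat-/- and WT cells, to see what the adaptor LAT contributes to the RNA of resting cells. The comparison rests on 6 RNA-sequencing libraries, 3 from Lat-/- cells and 3 from WT cells, out of the 18 libraries of the LAT experiment and the 54 of the series. They were picked by their labels alone, as the 0 h libraries of that experiment. Both kinds of cells were sorted from pooled lymph nodes and spleens of Lat fl-dtr maT-Cre mice on a C57BL/6 background. WT cells were those that carried human DTR, the diphtheria toxin receptor (hDTR+), and Lat-/- cells were those that had lost it (hDTR-). All 6 libraries therefore come from mice with the same floxed, reporter-tagged allele and the same Cre, the WT cells retain that allele, and the groups differ in the reporter as well as in Lat. The sources do not say how many mice were pooled for a library, so the p-values do not measure the spread between mice. In the main fit they rest on a spread estimated across genes, as described below. The purified cells of these libraries were left unstimulated, without anti-CD3 or anti-CD28. The libraries held 19130020 to 26609358 counts, and 3 counts, taken as the floor, correspond to 0.113 to 0.157 CPM per library.

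LAT is a membrane adaptor of T cells. When the T cell receptor (TCR) is engaged, the kinase ZAP70 phosphorylates LAT, and LAT then gathers PLC-gamma1, SLP-76, and GRB2 family proteins, which leads to calcium entry, to activation of ERK, and to transcription of immediate early genes such as the EGR and NR4A factors. Naive T cells also receive weak signals from self peptides on MHC molecules without becoming activated. Such tonic signals are known to set the level of CD5, an inhibitory receptor, and low tonic signaling goes with high Ly6C.

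A gene was called where its level differed more than 2-fold with an adjusted p under 0.05. Of 27780 genes with at least 1 read, 226 were lower (0.814%) and 41 higher (0.148%) in Lat-/- than in WT cells. The median fold of the lower genes was 3.55 and that of the higher genes 2.48. The 3 Lat-/- and the 3 WT values did not overlap in 188 of the 226 lower and in 37 of the 41 higher genes, whereas over all genes tested 4.70% lay below without overlap and 3.99% above. By adjusted p alone, 329 genes were lower (1.18%) and 114 higher (0.410%). Among the 10018 genes that averaged 50 or more counts, 208 were lower and 103 higher by adjusted p alone. The size of the lists depended on the treatment of weakly expressed genes. With all 27780 genes in the fit, edgeR found no spread of the dispersion between genes (an infinite prior weight), so the scatter of a single gene barely entered its p or SE. The SE and adjusted p of single genes below come from this fit unless another is named. With weak genes removed (filterByExpr, 13928 genes), the prior weight was 6.46 degrees of freedom, and 83 genes were lower (0.596%) and 17 higher (0.122%), 82 and 17 of them shared with the lists above, or 114 (0.818%) and 33 (0.237%) by adjusted p alone. In the same filtered fit of the 6 libraries alone, 75 of 12484 genes were lower (0.601%) and 21 higher (0.168%), and by adjusted p alone 94 (0.753%) and 32 (0.256%). DESeq2 called 144 genes lower (0.970%) and 33 higher (0.222%), and by adjusted p alone 1.53% and 0.525% of genes. Without Lat-/- library 2, 142 genes were lower and 33 higher. With the replicate number as a block in a fit of the 6 libraries alone, 236 genes were higher by adjusted p. Each list is therefore given with the number of members that also passed in the filtered fit of 13928 genes. Some lists share members, so their counts are not independent. Library 2 of WT stood apart from the other WT libraries, with 17183 genes detected against 19221 and 19599. The first principal component, with 47.7% of the variance, separated the genotypes, and on the second, with 36.0%, library 2 of each genotype lay at the same end of its group.

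**Figure D1:**
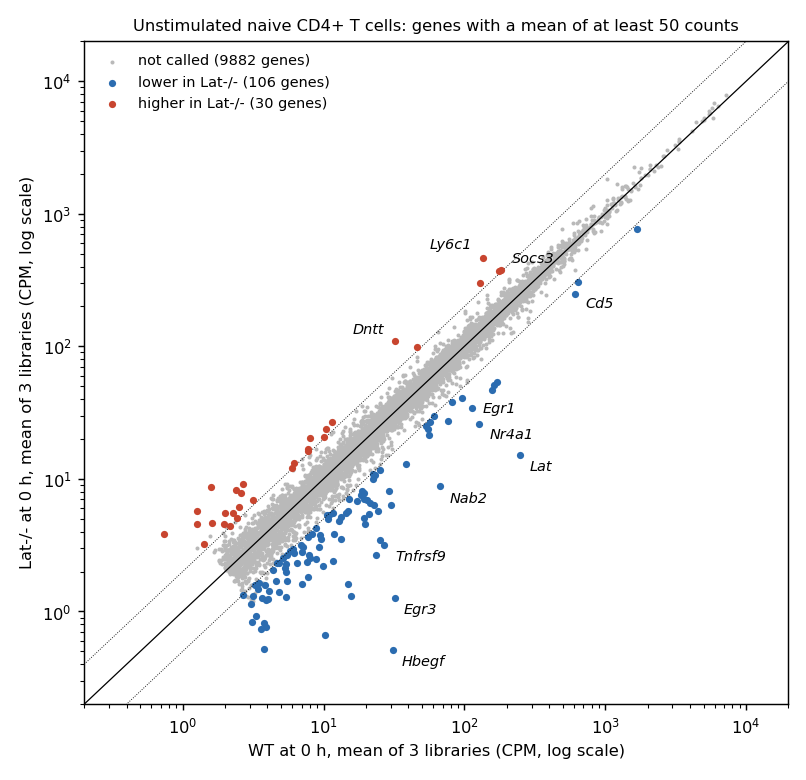
Mean level in WT (x axis) and Lat-/- cells (y axis) at 0 h, in CPM on log scales, for the 10018 genes that averaged 50 or more counts; the solid line marks equal levels and the dotted lines a 2-fold difference. Most genes lie between the dotted lines, 106 called genes lie below (blue) and 30 above (red), with Hbegf, Egr3, and Lat farthest below.

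Lat itself was measured first, as a check of the labels. Lat (ENSMUSG00000030742.7, GRCm38 chr7:126363824-126369570, minus strand) was at 292, 213.6, and 240.6 CPM in the WT libraries and at 15.2, 11.6, and 19.1 CPM in the Lat-/- libraries. All Lat-/- libraries thus lay far below all WT libraries, at 6.14% of the WT mean, and none was at 0. The log2 fold change was -4.02 (SE 0.17, adjusted p 2.94e-118). Within 10 Mb of Lat, 338 genes were tested, of which 2 besides Lat were lower and 1 was higher.

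Hbegf, the mouse gene for the growth factor whose human version is the diphtheria toxin receptor, gave the largest fold of all genes averaging 50 or more counts. It was at 29.6, 37.9, and 25.4 CPM in WT and at 0.296, 0.466, and 0.773 CPM in Lat-/- cells (log2 fold change -5.87, SE 0.28, adjusted p 3.08e-96). In unstimulated WT cells from the experiment on CD5 and CD6, whose labels name no human DTR, the gene was at 0.499, 0.181, and 0.146 CPM. This level is from another table that was scaled separately, and from other mice whose cells were purified with a kit instead of sorted. Reads of the human reporter and of the mouse gene cannot be told apart in these counts, and Hbegf is given as a check of the sort.

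Some transcription factors of the immediate early response were among the genes with the largest reduction. EGR1 and EGR3 are zinc finger factors induced by ERK, NAB2 is a corepressor that binds EGR proteins and is itself an EGR target, and NR4A1 (NUR77) and NR4A3 are orphan nuclear receptors that are induced by TCR signals. Egr3 was at 38.0, 23.2, and 34.8 CPM in WT and at 1.33, 0.979, and 1.51 CPM in Lat-/- cells. The lowest WT library thus lay far above the highest Lat-/- library, and the mean fell to 3.98% of WT (log2 fold change -4.64, SE 0.20, adjusted p 2.94e-118). Nr4a3 was at 27.8, 20.3, and 22.1 CPM in WT and at 3.16, 2.47, and 2.40 CPM in Lat-/- cells (-3.13, SE 0.18, adjusted p 1.69e-66). Nab2 was at 62.6, 76.8, and 63.4 CPM in WT and at 8.14, 6.57, and 11.6 CPM in Lat-/- cells (-2.94, SE 0.17, adjusted p 4.92e-66).

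Nr4a1 and Egr1 differed more widely between the Lat-/- libraries than these 3 genes. Nr4a1 was at 125.4, 85.9, and 166.9 CPM in WT and at 15.8, 6.99, and 54.6 CPM in Lat-/- cells (log2 fold change -2.28, SE 0.15, adjusted p 1.17e-46). Egr1 was at 127.8, 84.3, and 127.1 CPM in WT and at 31.1, 16.6, and 55.8 CPM in Lat-/- cells (-1.71, SE 0.15, adjusted p 1.07e-25). In both genes library 2 was the lowest and library 3 the highest of the Lat-/- group, and the groups still did not overlap. Library 2 was also the lowest of the WT group in both genes. In the filtered fit the adjusted p was 0.0413 for Nr4a1 and 0.0117 for Egr1, and in the filtered fit of the 6 libraries alone 0.179 and 0.0799. Neither of these fits used the replicate number. With it as a block in the unfiltered edgeR fit of 18 libraries, the adjusted p was 1.7e-66 and 2.52e-30. A filtered fit with the block was not run. Egr2 was close to the floor, at 0.0413 to 0.431 CPM in WT and 0 to 0.0813 CPM in Lat-/- cells, and did not pass (adjusted p 0.106).

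Of the 28 tested genes of the list of NR4A and EGR factors and other immediate early genes, 6 fell and 0 rose (all genes: 1.18% and 0.410%). The list's median log2 fold change was -0.19 against 0.00 over all genes tested. In the filtered fit 5 of the 6 passed. The sixth, Nr4a2, named after its values were seen, was at 1.61 to 1.92 CPM in WT and 0.140 to 0.976 CPM in Lat-/- cells, with an adjusted p of 0.328 in the filtered fit. The other 22 members, among them the FOS, JUN, and ATF genes of the list, did not pass, so the fall was uneven within the group.

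The promoters of Nr4a1 and Nr4a3 are shown because both genes moved together and because the sequence TGACG, the core of the cyclic AMP response element (CRE) bound by CREB and ATF factors, recurs in them. Each line gives the 250 bases before the RefSeq start, 5′ to 3′ on the strand of the gene, in GRCm38.p6, at chr15:101266596-101266845 (plus strand) and chr4:48045055-48045304 (plus strand). Capitals mark TGACG on either strand and, in Nr4a1, a site for EGR factors.
Nr4a1: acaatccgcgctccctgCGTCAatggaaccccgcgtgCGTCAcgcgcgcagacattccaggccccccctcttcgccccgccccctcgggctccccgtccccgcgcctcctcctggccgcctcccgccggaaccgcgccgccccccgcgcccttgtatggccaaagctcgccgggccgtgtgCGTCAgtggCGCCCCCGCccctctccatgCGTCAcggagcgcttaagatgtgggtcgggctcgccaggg
Nr4a3: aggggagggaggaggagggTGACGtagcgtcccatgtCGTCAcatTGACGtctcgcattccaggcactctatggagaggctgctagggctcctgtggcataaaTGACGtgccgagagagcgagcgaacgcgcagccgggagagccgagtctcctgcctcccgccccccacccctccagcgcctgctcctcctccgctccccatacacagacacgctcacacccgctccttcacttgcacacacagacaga
Each window held 4 copies of TGACG, counted on both strands. The EGR motifs searched were GCGTGGGCG and GCGGGGGCG, and the match in Nr4a1 lay 52 to 60 bases before the start. TGACG was found in 17.8% of the 32851 promoter windows of the table, in 23.6% of those of genes tested, in 15.7% of 216 windows of the lower genes, and in 22.2% of 45 windows of the higher genes. The complete CRE, TGACGTCA, which contains the shorter motif, was in 1.55% of all windows, 2.29% of those of genes tested, and 1.39% of those of lower genes. The EGR motifs were in 3.06%, 4.86%, and 4.63% of the same windows, so their share in the lower genes lay above that of all windows and just below that of genes tested. AP-1 sites (TGANTCA) were in 6.75%, 5.08%, and 6.02%, sites for NR4A monomers (AAAGGTCA) in 1.34%, 1.01%, and 0.926%, and CArG boxes, bound by serum response factor, in 1.47%, 1.22%, and 0.926%. These letters describe the windows and do not show binding. Of the called genes, 169 of 226 lower and 33 of 41 higher had a window in the table, and Egr3 had none.

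**Figure D2:**
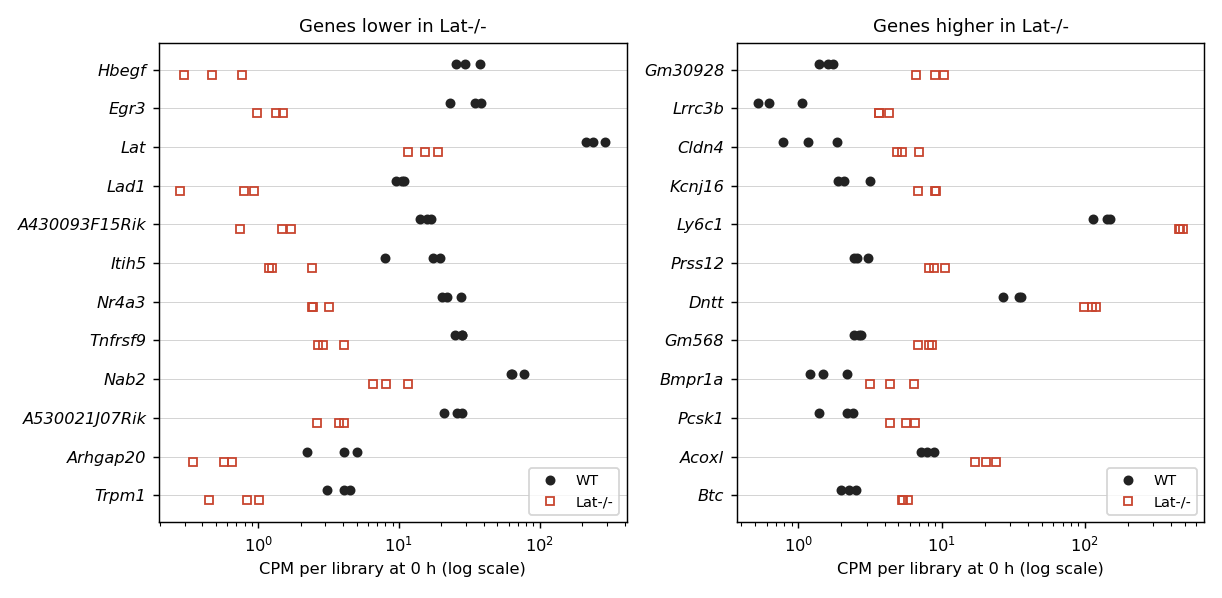
Level of the 12 lower (left) and 12 higher (right) genes with the largest fold, among genes averaging 50 or more counts, in CPM per library on a log scale; filled circles are the 3 WT and open squares the 3 Lat-/- libraries. No gene shown has overlapping groups, as the rule for these genes requires.

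Cd5 and Ly6c1, known readouts of tonic signaling, also differed between the genotypes. Cd5 and Cd6 code for related scavenger receptors that bind regulators of TCR signaling and lie next to each other on chromosome 19. Cd5 was at 621, 633, and 577 CPM in WT and at 265.9, 239.3, and 240.8 CPM in Lat-/- cells (log2 fold change -1.30, SE 0.15, adjusted p 1.88e-15). Cd6 was at 667, 617, and 638 CPM in WT and at 321, 279.5, and 321 CPM in Lat-/- cells (-1.06, SE 0.15, adjusted p 3.41e-10). Both were thus abundant in WT cells and fell to 40.8% and 48.0% of that level with narrow spread. Ly6c1, which codes for the Ly6C surface protein, went the other way. It was at 113.8, 149.9, and 143.1 CPM in WT and at 453, 486, and 460 CPM in Lat-/- cells, a rise of 1.78 on the log2 scale (SE 0.15, adjusted p 4.12e-28). Ly6c2, its near-identical neighbor, was at 6.60 ± 2.02 CPM (SD, n = 3) in WT and at 6.615 ± 1.33 CPM in Lat-/- cells, and the counting could have split reads between both copies. Of the 18 genes of the list of tonic signaling markers, 11 fell and 2 rose (all genes: 1.18% and 0.410%), the other riser being Ly6a. In the filtered fit, 8 and 1 of these passed. Ly6a, named after its values were seen, rose from 143.1, 224.3, and 175 CPM to 330, 407, and 385 CPM (log2 fold change 1.05) and lost its call there (adjusted p 0.229). The list's median log2 fold change was -1.18 against 0.00 over all genes tested. The list was drawn up with results of these data known, so its direction is a description. It holds Nr4a1, Nr4a3, Egr1, and Egr2, which were already counted in the immediate early list. Izumo1r and Ikzf2 are also in the regulatory T cell list, and Izumo1r and Cd200 in the checkpoint list. The counts of these lists are therefore not separate results.

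Other inhibitors of TCR signaling were looked at as a list. Of the 28 tested negative regulators, 5 fell, Cd5 and Cd6 included, and 1 rose (all genes: 1.18% and 0.410%), with 4 and 1 of them in the filtered fit. Ubash3b, which codes for the phosphatase STS-1, fell from 44.4 ± 10.9 CPM (SD, n = 3) to 25.1 ± 4.19 CPM (log2 fold change -0.82, SE 0.15, adjusted p 1.70e-05). Socs3, which codes for an inhibitor of JAK-STAT signaling, was the riser, at 155.2, 158.5, and 215.4 CPM in WT and at 366, 296.1, and 456 CPM in Lat-/- cells (1.08, SE 0.15, adjusted p 3.41e-10). Of 17 genes of the list of ERK feedback phosphatases and Sprouty genes, 5 fell and 0 rose, but 1 held in the filtered fit. The list also held Rasgrp1, Rasa1, Etv4, Etv5, and Ptger4, none of which passed. That gene was Dusp2, a nuclear phosphatase of MAP kinases, at 198.1, 215.8, and 250.6 CPM in WT and at 119.4, 95.9, and 167.8 CPM in Lat-/- cells (-0.79, SE 0.15, adjusted p 1.99e-05). Dusp4 was at 4.78, 1.45, and 5.50 CPM in WT and at 1.33, 0.699, and 1.63 CPM in Lat-/- cells, so the groups overlapped, and its adjusted p went from 6.71e-12 to 0.317 in the filtered fit. Among 17 genes of NF-kappaB signaling, 1 fell, Nfkbid, which codes for the nuclear inhibitor IkappaBNS, from 53.7 ± 3.60 CPM (SD, n = 3) to 25.1 ± 6.12 CPM (-1.10, SE 0.15, adjusted p 4.10e-10; filtered fit 0.0824).

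**Figure D3:**
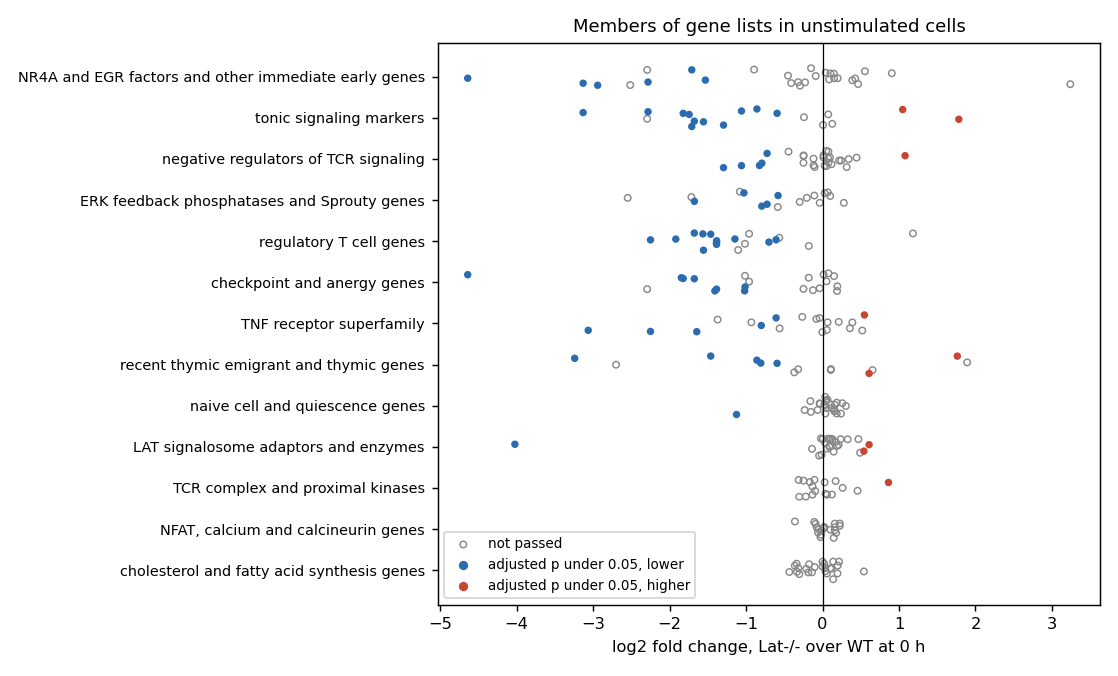
Log2 fold change of Lat-/- over WT at 0 h (x axis) for each tested member of 13 gene lists (rows, with points spread vertically so that they can be seen); filled points passed an adjusted p of 0.05, blue below and red above WT. The immediate early, tonic signaling, regulatory T cell, and checkpoint lists hold many members below 0, whereas members of the TCR complex, calcium, naive cell, and cholesterol lists lie mostly close to 0.

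Some receptors of the TNF receptor superfamily and the cytokine receptor gene Il2rb were lower as well. Tnfrsf9 codes for 4-1BB and Tnfrsf4 for OX40, receptors that rise on activated T cells and are present on regulatory T cells. Tnfrsf9 was at 25.0, 27.9, and 27.9 CPM in WT and at 2.86, 2.66, and 4.07 CPM in Lat-/- cells (log2 fold change -3.06, SE 0.17, adjusted p 5.18e-65). Tnfrsf4 was at 25.0, 37.1, and 29.0 CPM in WT and at 5.63, 4.66, and 8.74 CPM in Lat-/- cells (-2.25, SE 0.17, adjusted p 2.07e-38). Over the list of 19 TNF receptor superfamily genes, 5 fell and 1 rose (all genes: 1.18% and 0.410%), with 4 and 1 in the filtered fit, and 13 did not pass. Il2rb, the beta chain shared by the receptors of IL-2 and IL-15, was at 142.8, 132.1, and 194.5 CPM in WT and at 42.1, 32.1, and 65.8 CPM in Lat-/- cells (-1.74, SE 0.15, adjusted p 1.72e-26). Irf4, a transcription factor induced in proportion to TCR signal, was at 22.0, 12.9, and 23.7 CPM in WT and at 5.04, 3.45, and 5.29 CPM in Lat-/- cells (-2.09, SE 0.17, adjusted p 1.61e-32). In each of these genes, the lowest WT library lay above the highest Lat-/- library.

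Of the genes used by regulatory T cells 12 of 18 were lower, and of the checkpoint and anergy genes 8 of 21, against 1.18% of all genes. Foxp3, the lineage factor of regulatory T cells, was at 54.5, 50.3, and 62.4 CPM in WT and at 24.5, 16.3, and 23.2 CPM in Lat-/- cells (log2 fold change -1.39, SE 0.18, adjusted p 2.97e-12). Of 18 genes used by regulatory T cells, 12 fell and 0 rose, 7 of them also in the filtered fit, with a list median of -1.27. Gpr83, a receptor of regulatory T cells, fell by 1.56 on the log2 scale (SE 0.17, adjusted p 8.56e-17), and Lrrc32, which codes for the TGF-beta anchor GARP, by 1.92 (SE 0.20, adjusted p 5.11e-19). Izumo1r, which codes for folate receptor 4 and is shared by regulatory and anergic T cells, was at 144.1, 180.3, and 163 CPM in WT and at 51.1, 40.0, and 61.2 CPM in Lat-/- cells (-1.68, SE 0.15, adjusted p 1.60e-24). Of 21 checkpoint and anergy genes, 8 fell and 0 rose, 4 of them also in the filtered fit, and 13 did not pass. This list shares Izumo1r, Ctla4, Nrp1, Nt5e, and Entpd1 with the regulatory T cell list, and Egr2 and Egr3 with the immediate early list. Cd200, a surface ligand of an inhibitory receptor, fell by 1.82 (SE 0.17, adjusted p 3.93e-24) and Ndrg1, a factor of T cell anergy, by 1.85 (SE 0.17, adjusted p 4.62e-23).

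The summed level of the 6 regulatory T cell markers was 145.2, 128.5, and 179.1 CPM in WT and 54.1, 40.5, and 64.9 CPM in Lat-/- cells (p = 0.1 in a two-sided exact permutation of libraries, which can go no lower with 3 against 3), and 5 of the 6 markers fell. In bulk RNA, fewer cells of a type and less RNA per cell cannot be told apart. Foxp3 stood at 38.2% of its WT level, Cd5 at 40.8%, and Izumo1r at 31.3%, whereas Egr3 stood at 3.98%, Nr4a3 at 11.4%, Tnfrsf9 at 11.9%, and Nab2 at 13.0%. The part of the marker difference in the other results was not tested.

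Markers of other cells were examined in the same way, where 1.18% of all genes were lower and 0.410% higher by adjusted p. The 8 CD4 T cell markers summed to 6611 to 8624 CPM in WT and 6637 to 7921 CPM in Lat-/- cells (exact two-sided permutation test, p = 0.9), and 0 of 8 passed (1 at an unadjusted p under 0.05, 0 with DESeq2). Gamma delta T cell markers were at 32.3 to 46.5 CPM in WT and 14.8 to 17.1 CPM in Lat-/- cells (exact p = 0.1), with 3 of 8 lower, among them Trdc, the delta chain constant gene (log2 fold change -1.10, SE 0.21, adjusted p 2.26e-05). The list of NK and NKT cell markers was mixed. Here 8 of 12 fell, and 1 of the 8 passed in the filtered fit. Klra1, a Ly49 receptor gene, was at 0.525 to 1.61 CPM in WT and 0 to 0.203 CPM in Lat-/- cells. Prf1, which codes for perforin, rose from 60.1, 75.0, and 61.2 CPM to 115.3, 156.8, and 112.4 CPM (0.97, SE 0.15, adjusted p 1.20e-07), so the summed level of the list was higher in Lat-/- cells. Plasma cell markers came from 1 library, at 12.9 CPM in WT library 3 against 0.3455 to 0.863 CPM in the other 5, and Igha was at 9.52 CPM there and at 0 in the others. The call of Igha as lower is gone without that library. CD8 T cell markers summed to 48.4 to 55.3 CPM in WT and 38.3 to 52.6 CPM in Lat-/- cells, myeloid markers to 71.1 to 130 and 77.8 to 90.0 CPM, dendritic cell markers to 94.2 to 166 and 109 to 142 CPM, stromal markers to 230.5 to 279 and 255 to 267 CPM, and erythroid and platelet markers to 0.8235 to 1.53 and 0.0932 to 1.38 CPM. The dendritic cell sum was mostly Bst2, an interferon-induced gene that T cells also express, at 111.5 CPM in WT. The myeloid sum was mostly Cst3, at 82.7 CPM in WT, and the stromal sum mostly Pecam1, at 259.8 CPM in WT. By adjusted p, 3 of 7 dendritic cell, 2 of 5 CD8 T cell, 2 of 17 B cell, and 1 of 15 myeloid markers were lower, and in the filtered edgeR fit 0 were lower, against 1 in each of the 4 lists with DESeq2. Itgax and Zbtb46, markers of dendritic cells, were at 0.321 and 0.182 CPM in WT and at 0 in all Lat-/- libraries, and Irf8, a factor of dendritic and B cells, went from 9.49 to 5.92 CPM. B cell markers summed to 738 to 944 CPM in WT and 1051 to 1155 CPM in Lat-/- cells (exact p = 0.1), nearly all of it Ighm, at 788 CPM in WT and 1103 CPM in Lat-/- cells (adjusted p 0.0232 with the replicate block, and not passed without it). Effector and memory CD4 T cell markers summed to 321 to 453 CPM in WT and 241 to 317 CPM in Lat-/- cells (exact p = 0.1). The largest member was Il2rb, at 156.5 CPM in WT, with a log2 fold change of -1.74. By adjusted p, 2 of the 12 markers were lower and 1 higher, and the list's median log2 fold change was 0.256.

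**Figure D4:**
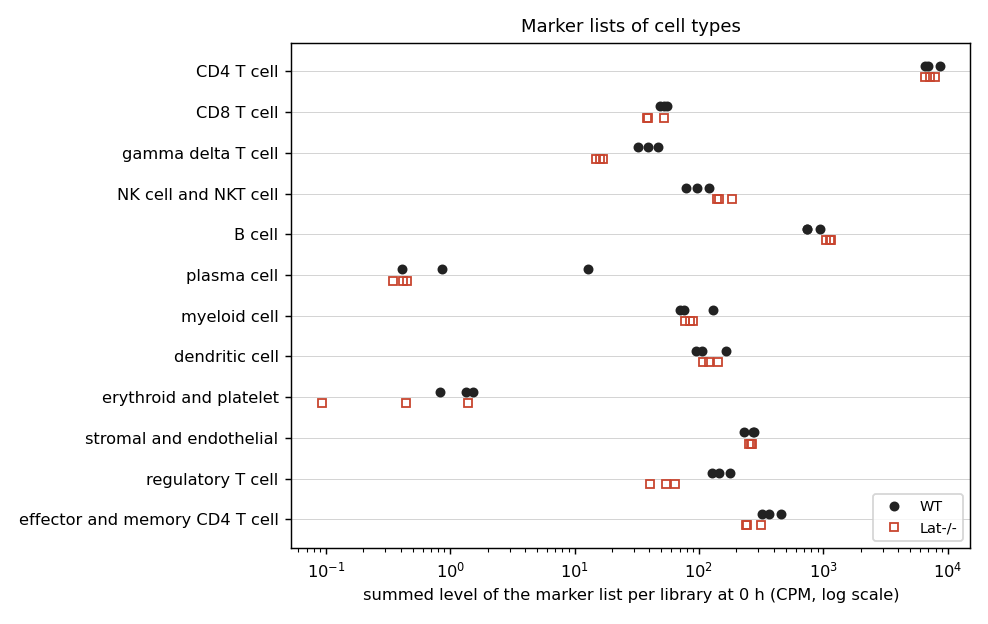
Summed level of the marker genes of 12 cell types per library at 0 h, in CPM on a log scale; filled circles are the 3 WT and open squares the 3 Lat-/- libraries. Regulatory, gamma delta, and effector and memory CD4 T cell sums lie lower in all Lat-/- libraries. B cell sums and NK and NKT cell sums lie higher in all of them. CD4 T cell sums overlap, and a single WT library holds most of the plasma cell signal.

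Dntt, among the 12 leading higher genes, codes for terminal deoxynucleotidyl transferase, which adds nucleotides at V(D)J junctions in the thymus. It was at 26.8, 34.5, and 35.8 CPM in WT and at 98.0, 111.5, and 119.8 CPM in Lat-/- cells (log2 fold change 1.76, SE 0.16, adjusted p 1.11e-24). Cd24a, which codes for the heat-stable antigen of immature thymocytes and recent thymic emigrants, moved the other way, from 2.27, 2.03, and 1.82 CPM to 0.247, 0.0466, and 0.325 CPM (-3.24, SE 0.32, adjusted p 2.09e-20). Of 14 tested genes of the list of recent thymic emigrant and thymic genes, 2 rose and 5 fell (all genes: 0.410% and 1.18%). In the filtered fit 1 and 1 passed, so the list had no common direction. The other leading higher genes were at low levels. Prss12, which codes for the serine protease neurotrypsin, was at 2.59, 3.06, and 2.45 CPM in WT and at 8.19, 10.5, and 8.87 CPM in Lat-/- cells (1.77, SE 0.23, adjusted p 8.73e-12). Acoxl, an acyl-CoA oxidase-like gene, was at 7.18, 7.89, and 8.89 CPM in WT and at 20.3, 17.2, and 24.0 CPM in Lat-/- cells (1.36, SE 0.22, adjusted p 1.055e-07). Gm30928, Lrrc3b, Cldn4, Kcnj16, Gm568, Bmpr1a, Pcsk1, and Btc had WT means of 0.735 to 2.61 CPM and Lat-/- means of 3.85 to 8.66 CPM. Of these 12 leading higher genes, Pcsk1 and Btc lost their call in the filtered fit (adjusted p 0.328 and 0.150), and Btc also when a library was left out (highest adjusted p 0.127).

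Further lower genes with large folds were Lad1, A430093F15Rik, Itih5, A530021J07Rik, Arhgap20, and Trpm1. Lad1 codes for ladinin, a basement membrane protein, and was at 10.8, 9.59, and 10.6 CPM in WT and at 0.790, 0.280, and 0.935 CPM in Lat-/- cells (log2 fold change -3.92, SE 0.23, adjusted p 3.40e-61). Itih5, an inter-alpha-trypsin inhibitor heavy chain, was at 17.4, 8.02, and 19.6 CPM in WT and at 1.19, 1.26, and 2.40 CPM in Lat-/- cells (-3.20, SE 0.28, adjusted p 2.23e-26). The long noncoding RNA A530021J07Rik fell to 13.9% of WT. All 12 leading lower genes also passed in the filtered fit.

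Most genes of the machinery around LAT and of the naive state did not pass the test. By adjusted p, 1.18% of all genes were lower and 0.410% higher. Of the 24 genes of the LAT signalosome, 2 rose and only Lat fell, and 1, Lat, passed in the filtered fit. The risers were Themis, an adaptor of thymocyte selection, from 206.9 ± 31.8 CPM (SD, n = 3) to 316 ± 42.1 CPM, and Grap2, which codes for the adaptor GADS, from 588 ± 133 CPM to 855 ± 25.4 CPM, with filtered adjusted p of 0.176 and 0.251. Of 17 genes of the TCR complex and its proximal kinases, 1 rose, Tec, a nonreceptor tyrosine kinase, by 0.86 on the log2 scale (SE 0.16, adjusted p 8.56e-06). Its adjusted p in the filtered fit was 0.157. Of 26 genes of the naive and quiescent state, 1 fell, Igfbp4, an IGF binding protein, from 1404, 1992, and 1633 CPM to 678, 823, and 784 CPM (-1.14, SE 0.15, adjusted p 8.73e-12). Il7r, Ccr7, Klf2, and Foxo1 had log2 fold changes of 0.04, -0.03, -0.06, and 0.24 and did not pass. The activation marker genes Cd69 and Cd44 had log2 fold changes of -0.22 (adjusted p 0.938) and 0.44 (adjusted p 0.172, or 0.0419 with the replicate block in the 6 libraries alone), and Myc, a driver of growth, of -0.40 (adjusted p 0.282).

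The remaining lists differed in how many members passed, against 1.18% of all genes lower and 0.410% higher. In the edgeR fit, 0 of 20 NFAT, calcium, and calcineurin genes passed (0 at an unadjusted p under 0.05 and 0 with DESeq2), 0 of 25 cholesterol and fatty acid synthesis genes (3 and 0), 0 of 8 GIMAP genes (1 and 0), and 0 of 8 mitochondrially encoded genes (1 and 0). Of 46 interferon stimulated genes, 2 rose, and neither did in the filtered fit. Of 34 cell cycle genes, 4 fell, and of these Top2a, which codes for the topoisomerase of dividing cells, held in the filtered fit, at 11.9 ± 1.01 CPM (SD, n = 3) in WT and 3.85 ± 1.04 CPM in Lat-/- cells (log2 fold change -1.62, SE 0.18, adjusted p 2.89e-16). Of 34 activation and memory genes, 8 fell and 2 rose (7 and 1 filtered), of 32 helper lineage genes 5 fell and 1 rose (2 and 1), of 28 genes of cytokine receptors and feedback 4 fell and 1 rose (1 and 1), and of 17 BCL2 family genes 3 fell and 1 rose (1 and 1). Of 30 genes of adhesion and migration 2 fell (1 filtered), of 24 growth genes 1 fell (0 filtered), of 22 chemokine receptor and homing genes 1 rose (0 filtered), and of 23 heat shock genes 4 rose (0 filtered). Among the heat shock genes, libraries with the same replicate number lay together, with Hsph1 at 173, 284, and 89.2 CPM in WT and at 221, 456, and 98.3 CPM in Lat-/- cells. Hsph1 lost its call with the replicate block in the 6 libraries alone (adjusted p 0.0876).

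The same genes were then followed in cells stimulated for 4 h or 20 h with anti-CD3 (3 µg/ml) and anti-CD28 (1 µg/ml). Here Lat-/- cells were compared with the WT cells of the same time. Of the 226 genes lower at 0 h, 145 were called lower at 4 h and 162 at 20 h, and 3 and 10 were called higher. Over all genes, 6.23% were called lower at 4 h and 12.3% at 20 h. Of the 41 genes higher at 0 h, 33 were called higher at 4 h and 28 at 20 h, against 5.51% and 12.1% of all genes, and 2 and 3 were called lower. Egr3 was at 1080 ± 123 CPM (SD, n = 3) in WT and 180.8 ± 46.8 CPM in Lat-/- cells at 4 h, so its difference narrowed by 2.06 on the log2 scale (SE 0.24, adjusted p 4.99e-15). Over all genes, such a change of the difference passed upward in 7.42% and downward in 7.58% from 0 h to 4 h, and in 13.5% and 12.8% from 0 h to 20 h. Nr4a1 was at 7870 ± 1252 CPM in WT and 1199 ± 175 CPM in Lat-/- cells at 4 h, a difference whose change from 0 h did not pass (-0.43, SE 0.21, adjusted p 0.172). The 4 h Lat-/- level of both genes lay above the 0 h level of WT cells. Ly6c1 and Dntt went apart further, since their WT levels dropped to 3.05 ± 1.68 and 2.13 ± 0.621 CPM at 20 h while the Lat-/- levels were 322 ± 77.2 and 94.0 ± 29.3 CPM. A530021J07Rik turned from lower at 0 h to higher at 20 h (log2 fold change 2.87, SE 0.29, adjusted p 5.07e-22).

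**Figure D5:**
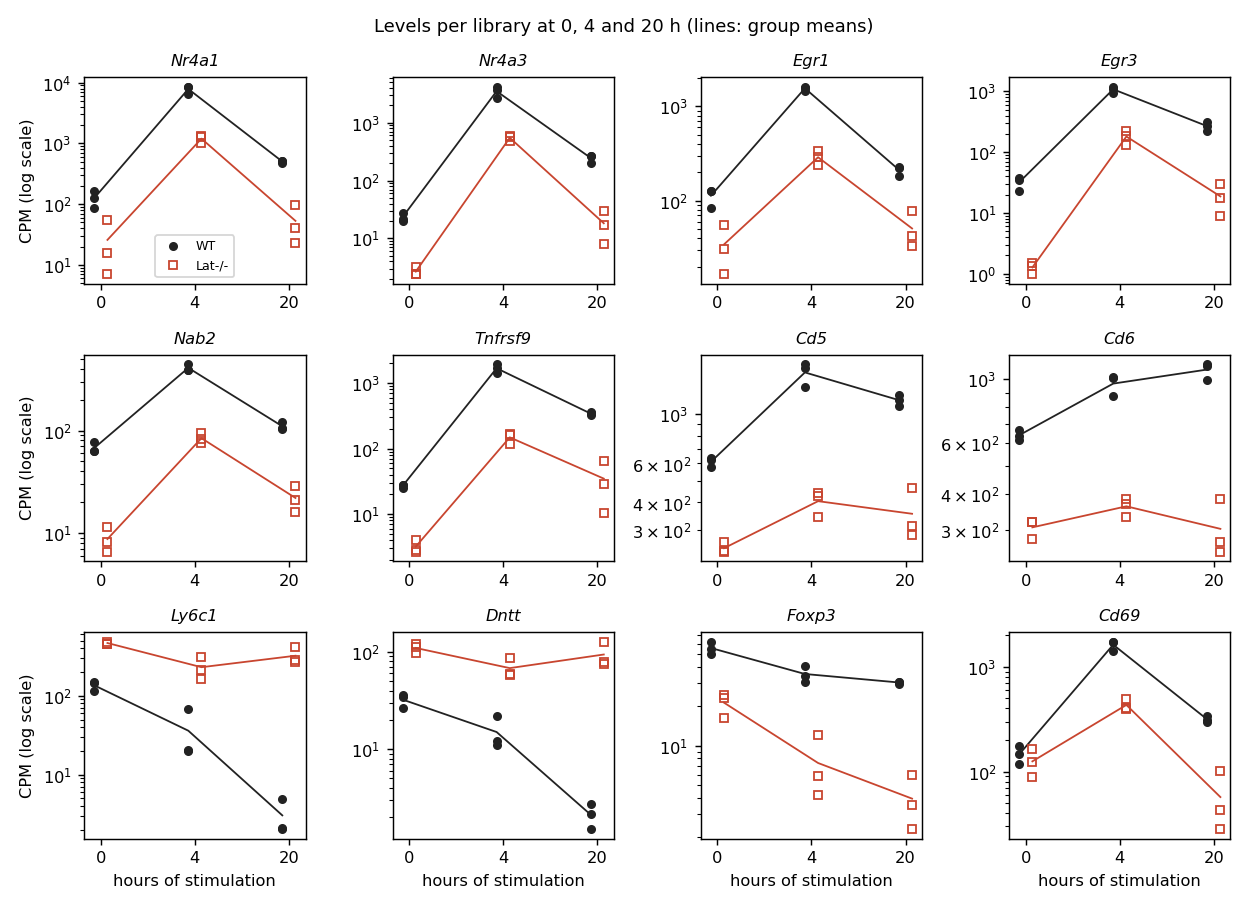
Level of 12 genes in each library (CPM, log scale) before and after 4 and 20 h of culture with the antibodies; filled circles are WT and open squares Lat-/- libraries, and lines join group means. The immediate early genes and Tnfrsf9 lay higher at 4 h than at 0 h in both genotypes, with Lat-/- below WT at each time, Ly6c1 and Dntt lay above WT in Lat-/- cells at each time, and Cd69 overlapped at 0 h only.

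To set the differences of resting cells against the response to TCR stimulation in other libraries, the called genes were looked up in the WT cells used to study CD5 and CD6. Those cells came from WT mice and were purified with an isolation kit, not sorted as in the LAT experiment. They received the same antibodies at the same doses. Of the 226 genes lower in resting Lat-/- cells, 94 (41.6%) were higher at 4 h and 118 (52.2%) at 20 h than at 0 h in those WT cells, against 8.24% and 12.3% of all 32290 genes tested. Another 50 (22.1%) were lower at 4 h and 66 (29.2%) at 20 h, against 11.1% and 17.3%. Of the 41 genes higher in resting Lat-/- cells, 23 (56.1%) were lower at 4 h and 24 (58.5%) at 20 h in stimulated WT cells, and 6 (14.6%) were higher at each of these times. The 94 genes made up 3.53% of the 2661 genes that rose at 4 h in those WT cells. With the filter in both experiments, 41.0% and 43.4% of 83 lower genes rose in WT cells at 4 h and 20 h, against 16.3% and 24.1% of all genes, and 22.9% and 31.3% fell, against 21.5% and 30.9%, so the excess over all genes was smaller than without it. Of the 15 higher genes tested there, 80.0% fell at 4 h and 73.3% at 20 h. In those WT cells Egr3 rose by a log2 fold change of 4.64 (SE 0.19) at 4 h, Nr4a3 by 7.07 (SE 0.24), and Tnfrsf9 by 6.40 (SE 0.24), while Itih5 and A530021J07Rik, also lower in Lat-/- cells, fell by 2.42 (SE 0.31) and 3.93 (SE 0.30).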

How the data were processed

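RNA was measured by sequencing in 6 unstimulated libraries, 3 per genotype, taken from the LAT experiment (18 libraries). The authors prepared stranded mRNA libraries, mapped the reads to GRCm38 with STAR, and deposited raw counts per gene from featureCounts, not normalized or pooled; annotation release, strand setting, and multimapping are not given in the sources used here. A deposited column of gene lengths was not used, and 0 per-sample columns were left out. Gene names came from GENCODE (55144 of 55385 identifiers).

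Genes with at least 1 read over the 18 libraries were tested in R 4.3.3 with edgeR 4.0.16 (quasi-likelihood test, TMM factors, 1 coefficient per genotype and time, Benjamini-Hochberg adjustment); DESeq2 1.42.0, other factors, filterByExpr, fits of the 6 libraries, the replicate block, and fits without each library were alternatives. CPM are counts divided by TMM-scaled library size, and floors cover counting error only. Marker sums were compared with exact permutation tests over libraries, which did not use the replicate numbers. The WT response came from a separate fit of the CD5/CD6 experiment. Promoters are from RefSeq (GRCm38.p6). The main edgeR fit and DESeq2 were also run on simulated counts in which every gene had the same dispersion. That check could not show how the fits treat genes that differ in their spread.

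Named genes were Lat, Cd5, Cd6, and preset genes of activation and the naive state, the 12 largest folds per direction without overlap and averaging 50 or more counts, and up to 4 members per list with the smallest adjusted p. Some named genes are not reported here. Members and lists were chosen with earlier results of these data known. Same-numbered libraries deviated together from their group means (Pearson r 0.373 to 0.521 across 10018 genes), so the numbers were taken to pair the samples. The values for different numbers were -0.354 to 0.068. Deviations cancel within a group, so positive values for same numbers push these down. The values for different numbers are therefore no separate support. No source states a shared preparation.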

Additional observations from a re-analysis of the deposited data

Results flagged for a closer look

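For the preset genes and the 12 leading genes per direction that were called at 0 h, the difference between Lat-/- and WT was compared between 0 h and each stimulated time as an interaction in the edgeR fit of all 18 libraries, and the changes below passed an adjusted p of 0.05. Other genes called at 0 h are not listed. This is the fit with the infinite prior weight, and the changes were not tested in a filtered fit or with the replicate block. Some lay near the threshold, such as Trpm1 and Cldn4 from 0 h to 20 h (interaction, adjusted p 0.0329 and 0.0330). From 0 h to 4 h, the log2 difference of Lat-/- minus WT moved up in Egr3 2.06, Ly6c1 0.89, Prss12 1.38, A430093F15Rik 0.86, Itih5 3.87, Nab2 0.67, A530021J07Rik 2.41, and Trpm1 2.54. It moved down in Lat -1.26, Cd5 -0.64, Egr1 -0.72, and Foxp3 -0.87. From 0 h to 20 h, the log2 difference of Lat-/- minus WT moved up in Lat 1.09, Egr3 0.80, Ly6c1 4.95, Lrrc3b 3.38, Kcnj16 5.62, Prss12 2.15, Dntt 3.70, Gm568 3.83, Bmpr1a 1.12, Pcsk1 4.88, Acoxl 5.54, Btc 4.13, Itih5 3.31, Nab2 0.62, A530021J07Rik 5.71, and Trpm1 1.47. It moved down in Cd6 -0.77, Nr4a1 -0.96, Foxp3 -1.56, Cldn4 -1.45, Lad1 -1.19, and Nr4a3 -0.62. A gene below WT at 0 h whose change is positive had a smaller gap or lay above WT later, as with Itih5 and A530021J07Rik. A gene above WT at 0 h whose change is positive had a wider gap, as with Ly6c1 and Dntt. At 20 h the WT counts of Lrrc3b (1, 0, and 2), Kcnj16 (0, 4, and 2), Gm568 (0, 2, and 2), and Btc (0, 6, and 0) lay around the floor of 3 counts. Acoxl and Pcsk1 had at most 6 and 7 counts there. The sizes of these changes to 20 h are therefore uncertain, with SE of 0.84 for Lrrc3b, 0.70 for Gm568, and 0.67 for Btc.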

How the results depend on the processing

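The targeted gene and the leading lower genes (Egr3, Nr4a3, Nab2, Tnfrsf9) kept their call under every alternative run, whereas the counts did not. With weak genes filtered out, 17 genes were higher and 83 lower, and by adjusted p alone 33 and 114. With the filter in the 6 libraries alone, an alternative chosen after seeing the data, these were 21, 75, 32, and 94. DESeq2 called 144 lower. Leaving out 1 library gave 30 to 41 higher and 142 to 246 lower genes, and by adjusted p alone 74 to 137 and 197 to 386; the lowest of these for lower genes, and 74, came without Lat-/- library 2. With the replicate number as a block, the pairing gave 46 higher and 235 lower genes in 18 libraries and 54 and 218 in 6, and 236 higher by adjusted p alone in 6; it moved no other count by over 1.5 times. Of 2292 values of 167 named genes under the alternatives, 2055 kept their side of the threshold, 197 lost the call, 36 gained it, and 4 turned. A change of sign in a gene that passed in neither fit was counted as kept. Genes removed by a filter, and called genes without an adjusted p under an alternative, were left out of these counts. Leaving out 1 library gave log2 fold changes of -0.19 to 0.98 for Hsph1 (lowest without Lat-/- library 2), -5.87 to 1.54 for Igkc, -3.39 to 1.74 for Jchain, and -9.79 to 0.00 for Igha, and a log2 ratio of plasma cell markers of -4.09 to -0.66; the upper values of Igkc, Jchain, Igha, and the plasma cell markers are without WT library 3, and the cause was not tested. With the filter in both experiments, also chosen after seeing the data, 0% and 6.67% of the genes higher in Lat-/- cells rose at 4 h and 20 h in the WT cells used to study CD5 and CD6. Depth limits genes near the floor, such as Egr2.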

Other observations

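Gene families outside the lists, looked at after their values were seen, were counted by adjusted p, against 1.18% of all genes lower and 0.410% higher. Among TCR variable genes, 0 of 69 alpha and 0 of 22 beta genes passed in edgeR's test (1 and 1 at an unadjusted p under 0.05). Among cytosolic ribosomal protein genes, 0 of 80 passed (0 unadjusted). Of 9 tested Ly49 receptor genes, 5 were lower, all with a mean below 50 counts. Of 57 immunoglobulin genes, 4 were lower.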
